A study of Saccharomyces cerevisiae with 1245 samples.

Results

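The genes described here are the 128 protein-coding genes of budding yeast whose promoter window held no ChIP-exo peak of any target in cells without heat shock, of 5877 eligible genes (2.18%). They were selected on the peak lists themselves: each window began 700 bp before the first base of the coding sequence and ended 100 bp after it, and 1115 lists of 716 targets with 360480 peaks were read across it. Genes within 10 kb of a chromosome end, 125 of 6002 nuclear genes, were left out. The median eligible gene had peaks of 14 targets in its window, with quartiles at 7 and 27 and a highest value of 591. The absence of a peak is therefore the rule and not a result. What follows describes which genes these are, what lies around them, and what the lists outside the rule showed there.

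ChIP-exo maps where a crosslinked protein touches DNA by trimming the bound fragment with an exonuclease, and the series applied it to a large share of the yeast proteins that work on chromatin. Samples under heat shock came from cells treated for 6 min (20 samples) or 3 min (2 samples), and they gave 22 lists of 15 targets. MNase-ChIP-seq, in which chromatin is cut by micrococcal nuclease before the histones are pulled down, gave 18 lists of 8 histones or histone marks. All samples, heat shock included, were labelled as grown in YPD (rich medium with glucose) at 25°C and fixed with 1.0% formaldehyde. Most proteins carried a TAP tag and were captured through it. Others carried an HA tag or were captured with an antibody to the protein or mark. The labels used here give neither the strain nor its mating type, nor the temperature of the heat shock.

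As background, a yeast gene that is transcribed usually has a nucleosome-depleted promoter, flanked by nucleosomes that carry the histone variant Htz1 (H2A.Z), where general transcription factors such as Sua7 (TFIIB) assemble. Genes for mating in the other cell type, sporulation, scarce nutrients or cell adhesion are known to be held off in rich medium until a signal or a change of cell type calls for them. Some of them, such as genes for cell adhesion, lie near chromosome ends, where silent chromatin and repeated gene families are found. RSC, an abundant nucleosome remodeller, and SAGA, a coactivator, both act at promoters.

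Lists differed widely in length, with 1 peak in the shortest, 79 in the median list and 7062 in the longest, and 321 of the rule's lists had fewer than 20. Heat shock lists held 16 to 2291 peaks and MNase-ChIP-seq lists 5 to 5089. The first replicates of Rpn14 and Tif1 had 1 peak each at the same position, which touched no window here. Read depth is unknown, so an empty window may still have been bound below what the lists could detect.

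Of the 128 genes, 72 had a gene name and 56 (43.8%) had a systematic name only, against 692 of all 5877 eligible genes (11.8%). By role, 16 named genes belonged to the use of nitrogen, sulfur, vitamins or carbon sources, 7 to meiosis and spore formation, 4 to mating, 4 to the seripauperins (small cell wall mannoproteins), 3 to the flocculins (cell surface adhesins), 2 to the aryl-alcohol dehydrogenases, 2 to stationary phase and 2 to drug or polyamine transport. These roles were assigned after the names were seen, and 32 further named genes were not placed. Eligible genes were not counted by role, so these counts do not show whether a role is more frequent among members. None of 138 cytosolic and none of 70 mitochondrial ribosomal protein genes was among the 128. At the background share of 2.18%, few members would fall in lists of these sizes. Cytosolic ribosomal protein genes had peaks of a median of 62 targets and the mitochondrial ones of 16, against 14 over all eligible genes.

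The sporulation genes were DON1, a protein of the prospore membrane, SPO21 of the meiotic spindle pole body, SSP2, OSW2 and GAS4, which act in making the spore wall, REC102, needed for meiotic recombination, and SPR2. In a wider list of meiosis and sporulation genes, 6 of 89 (6.74%) had no peak, against 2.18% of all eligible genes, and the list's median was 5 targets against 14. A total of 28 of the 89 had peaks of 2 or fewer targets. The nearest peak upstream lay at 2320 bp for SSP2, 2002 bp for OSW2 and 1739 bp for REC102, and at 1155, 1070, 959 and 892 bp for DON1, SPO21, GAS4 and SPR2, where the median of all members was 1530 bp. It was of Htz1 at all of them but REC102, where it was of Ssl2, a TFIIH helicase. OSW2 had 2132 bp to the next peak downstream as well. Between 701 and 2000 bp upstream, beyond the window, GAS4 had 38 peaks of 15 targets, SPO21 34 of 22, REC102 25 of 16, DON1 12 of 9 and SPR2 9 of 7, and OSW2 and SSP2 had none. General transcription factors such as Sua7 and TFIIH subunits were among the names at each of those 5. Each of the 5 had an upstream neighbour on the same strand, whose own promoter can fall in this stretch. The windows of these neighbours had peaks of 14 targets (HRT1, before GAS4), 22 (YPQ1, before SPO21) and 58 (NMA1, before REC102). GLO2, before DON1, had 9 and AIM41, before SPR2, had 7. To which gene the peaks belong was not tested.

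The mating genes were MF(ALPHA)1, which encodes the pheromone alpha-factor, SAG1, the alpha-agglutinin that mediates adhesion to cells of the opposite type, and PRM9 and PRM10, pheromone-regulated membrane proteins. Among other genes known to be specific to alpha cells, MF(ALPHA)2 had peaks of 3 targets and STE3, the a-factor receptor, of 4. Genes known to be specific to a cells had many more. BAR1, the alpha-factor protease, had peaks of 34 targets, STE2, the alpha-factor receptor, of 32, STE6 of 68, MFA1 of 28, MFA2 of 83 and AGA2 of 55. The 4 alpha-specific genes named here thus had 0 to 4 targets and the 6 a-specific genes 28 to 83. Over all eligible genes the quartiles were 7 and 27 targets, and 25.0% had 28 or more. These counts use the lists that chose the members, so they carry no test. MF(ALPHA)1, on chromosome XVI at 193648 to 194145, had no peak from its window out to 2175 bp upstream or 1569 bp downstream, and both of those nearest peaks were of Htz1.

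For the 3 flocculin members, peaks stood outside the window rather than being absent from the locus. Of other flocculins, FLO1 had peaks of 3 targets and FLO9 of 8 targets in the window. FLO11, the adhesin of filamentous and invasive growth (chromosome IX, 389572 to 393675, minus strand), had 54 peaks of 38 targets between 701 and 2000 bp upstream of its coding start. They included the corepressor pair Cyc8 and Tup1, the repressors Sfl1, Nrg1 and Nrg2, and Mss11, Phd1, Sok2 and Ste12, which are known regulators of FLO11 through an unusually long upstream region. YIR020C, on the same strand 579 bp upstream of FLO11, had peaks of 38 targets in its own window. To which gene the upstream peaks belong was not tested. A further 52 peaks of 30 targets lay over the FLO11 gene, between 1128 and 2278 bp downstream of its start. FLO10 had 12 peaks of 9 targets in the same upstream stretch, namely Cyc8, Tup1, Sfl1, Sok2, Phd1, Mig2, Cin5, Cmr3 and Sut1, and none over the gene. The nearest was Cin5 at 745 bp, just past the window's edge. FLO5 had none there and 8 peaks of 2 targets, Ifh1 and Fhl1, over its gene. So the 3 flocculin members share an empty window but differ in what lies past it. In a list of flocculins and mucins, 3 of 17 eligible genes (17.6%) had no peak, with a median of 8 targets.

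The seripauperins PAU2, PAU4, PAU7 and PAU23 were 4 of 11 eligible genes (36.4%) in the COS and PAU families, whose median was 1 target. In a list of genes that have tandem or repeated copies elsewhere in the genome, 9 of 31 (29.0%) had no peak: FLO5, FLO10 and FLO11, AAD10 and AAD14, SNO1 and SNZ1, PRM9, and MST27. The list's median was 2 targets. How the aligned reads of repeated copies were treated is not given in the sources used here, and its part in these counts was not tested.

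Among nutrient genes, SNO1 and SNZ1, which act together in vitamin B6 synthesis, share a divergent promoter of 448 bp on chromosome XIII, with a stretch of 4741 bp around them free of peaks and bounded by Htz1 peaks on both sides. SUL1, a sulfate permease, had 4977 bp free of peaks, from a Htz1 peak 2114 bp upstream to a Sua7 peak 2864 bp downstream. DAL5, the allantoate permease, and its neighbour PGU1, a secreted pectinase, were adjacent members on chromosome X. UGA1, the GABA transaminase, shared a divergent promoter of 534 bp with YGR018C. ADR1, an activator of genes repressed by glucose, shared one of 532 bp with YDR215C. Between 701 and 2000 bp upstream of ADR1 lay 53 peaks of 37 targets, Hsf1 being nearest at 787 bp, and 20 of these peaks, of 15 targets, lay over the body of YDR215C itself. The 17 eligible galactose and maltose genes had a median of 3 targets and the 17 hexose transporters one of 17. Neither list held a member, but at the background share of 2.18% lists of this size say little.

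The remaining nutrient genes were JLP1, which releases sulfite from sulfonates, DCG1 beside the allantoin genes DAL7 and DAL2, AUA1, THI22, YAT2, PEX18, which brings proteins into peroxisomes, ODC1, a mitochondrial carrier of dicarboxylates, TMT1 and MBR1. PEX18 had the nearest peak of these, Hsf1 at 105 bp downstream of its start, and ODC1 had one of Ume6 at 619 bp downstream. MBR1 had Hap1, a heme-responsive activator, as its nearest upstream peak at 1006 bp. The aryl-alcohol dehydrogenases AAD10 and AAD14 had Htz1 peaks as the nearest on both sides, at 1763 and 1119 bp for AAD10 and at 1998 and 1577 bp for AAD14. Of the stationary phase genes, SPG1 had a peak of Nrd1, a termination factor, 186 bp into the gene, and SPG3 had Sua7 peaks at 2760 bp upstream and 607 bp downstream. The transporter genes QDR1 and PDR18 had their nearest peaks at 660 and 924 bp, both of Htz1.

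Named genes not placed in a role included SSD1, SRO77, HBT1, POL4, YSR3 and TAR1, described below, and MST27, BSC4, TEP1, PCD1 and ATG45. Members with a systematic name only were shorter, with a median of 357 bp against 898.5 bp for the named members, but this order also held among eligible genes, at 629 and 1272 bp. In both classes members were shorter than eligible genes. The nearest peak lay at a median of 534 bp for the unnamed members and 759 bp for the named ones. Heat shock peaks were found at 5 of 56 unnamed (8.93%) and 4 of 72 named members (5.56%). Among all eligible genes those shares were 50.29 and 47.10%. MNase peaks were found at 5 unnamed (8.93%) and 3 named members (4.17%). Over eligible genes the order was the reverse, with 27.02% of unnamed and 48.58% of named genes. The counts over members are small, and this difference was not tested.

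Members lay near a chromosome end more often than eligible genes as a whole. A total of 18 (14.1%) lay between 10 and 20 kb of a chromosome end, against 2.14% of eligible genes, and 29.7% lay within 50 kb, against 9.83%. Among the 125 genes left out for lying closer still, 52 (41.6%) had no peak. Members were found on every nuclear chromosome, from 1.05% of eligible genes on IV to 5.75% on I.

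Those 18 genes came from 11 chromosomes and included FLO10, PAU4, PDR18, SRO77, ECM34, AAD10 and AAD14. YOL162W was the closest at 10118 bp from the end of chromosome XV, and SRO77 on II was next but one at 10846 bp, after YLR464W at 10397 bp. Being near an end was of a like frequency among named members, 20 of 72 (27.8%) within 50 kb, as among those with a systematic name only, 18 of 56 (32.1%). For all eligible genes those shares were 9.30 and 13.9%.

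Members were also short, and the gene before them often ran in the same direction. Their median length was 594 bp, against 1206 bp for eligible genes. The upstream neighbour lay on the same strand for 67.2% of members and 46.9% of eligible genes, while a divergent neighbour stood upstream of 24.2% and 50.6%. The same-strand share was 66.7% of named members and 48.0% of named eligible genes, and 67.9% and 38.9% where only a systematic name exists. The coding start fell inside another gene for 11 members (8.59%) and for 2.45% of eligible genes. These were PRM10 within YJL107C, IRC9 within YAK1, BUD25 within FAA2, VAM10 within VPS5, JIP3 within MID2, YGL149W within INO80, YNL140C within THO2, YKL104W-A within GFA1, YJR079W within BNA2, YBR219C within YBR220C and YCR099C within EMA35. At YGL149W the nearest upstream peak was 8013 bp away, beyond the INO80 gene. Other coding sequence covered at least 50% of the window at 53 members (41.4%) and 25.9% of eligible genes. Yet 35 members (27.3%) had a window with no other coding sequence in it, close to the 25.4% of eligible genes, so an empty window was not only a window inside genes.

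**Figure D1:**
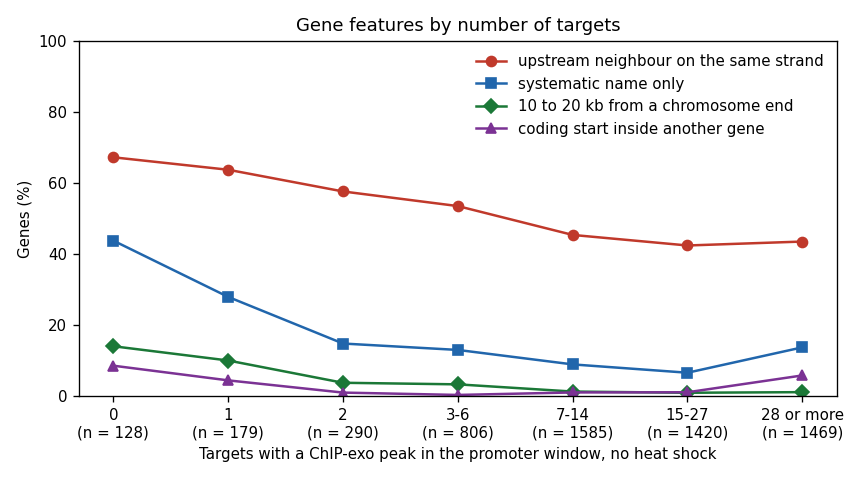
Share of genes (%, vertical axis) with each of 4 features, for eligible genes in bands of the number of targets with a ChIP-exo peak in the promoter window (horizontal axis, n below each band). From 0 targets to 15-27 targets the share with a same-strand upstream neighbour goes from 67.2 to 42.4% and that with a systematic name only from 43.8 to 6.62%, and the shares near a chromosome end and inside another gene are also highest at 0 targets.

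The features changed gradually with the number of targets rather than stepping at 0, as the plot of features by number of targets shows. The share with a systematic name only was 43.8, 27.9 and 14.8% at 0, 1 and 2 targets, and 8.96, 6.62 and 13.8% in bands of 7 to 14, 15 to 27 and 28 or more targets. Median gene length over the first 3 bands was 594, 930 and 1296 bp. The share of unnamed genes rose again in the last band, where the coding start fell inside another gene for 5.85%. Genes in the nested arrangement of retrotransposon Gag and Gag-Pol, 78 in all, had a median of 76 targets. How many of that band's unnamed genes they make up was not counted.

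Neighbours of the 128 also had fewer targets than usual. The gene upstream had a median of 9 targets, against 15 for eligible genes, and the gene downstream 8 against 14. A neighbouring gene was itself a member for 21 members (16.4%) and had no peak for 3.86% of eligible genes. Windows of neighbouring genes can overlap, so a pair is partly 1 observation. In all 11 runs of adjacent members held 23 genes. The longest, of 3, was PAU4, YLR462W and YLR464W at the right end of chromosome XII (1062919 to 1067501), with no peak recorded downstream of YLR462W and YLR464W.

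The other runs were pairs. Divergent pairs that share a promoter were SNO1 with SNZ1, UGA1 with YGR018C, ADR1 with YDR215C, and TMT1, a trans-aconitate methyltransferase, with YER175W-A. Further pairs were YAL064W-B with TDA8, YCR099C with EMA35, ECM34 with YHL042W, DAL5 with PGU1, and YNR064C with YNR065C, the last 2 genes in 7986 bp free of peaks. TAR1 and YLR154C-G lie in the ribosomal DNA of chromosome XII (454696 to 462671), in the longest stretch around any member, 18438 bp. TAR1 is encoded antisense to ribosomal RNA. This DNA is repeated in tandem, and how reads from repeats were placed is not given in the sources used here, and its part in this stretch and in the distances of both genes to a peak was not tested.

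Seen from the coding start, the nearest peak lay at a median of 704.5 bp for members and 34 bp for the other 5749 eligible genes, a gap that the window itself sets in large part. It was on the downstream side for 95 members and within 1000 bp for 93. Only 9 members had no peak within 2000 bp. These were YLR154C-G at 6402 bp, TAR1 at 4062 bp, SRO77, an exocytosis protein, at 3298 bp, YNR064C at 3114 bp, YLR464W at 2317 bp, SNO1 at 2150 bp, SNZ1 at 2143 bp, SUL1 at 2114 bp and OSW2 at 2002 bp, with YPL119C-A next at 1964 bp. The stretch between the nearest peaks on both sides had a median of 2373 bp over the 126 members with a peak on each side, and ranged from 905 to 18438 bp.

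**Figure D2:**
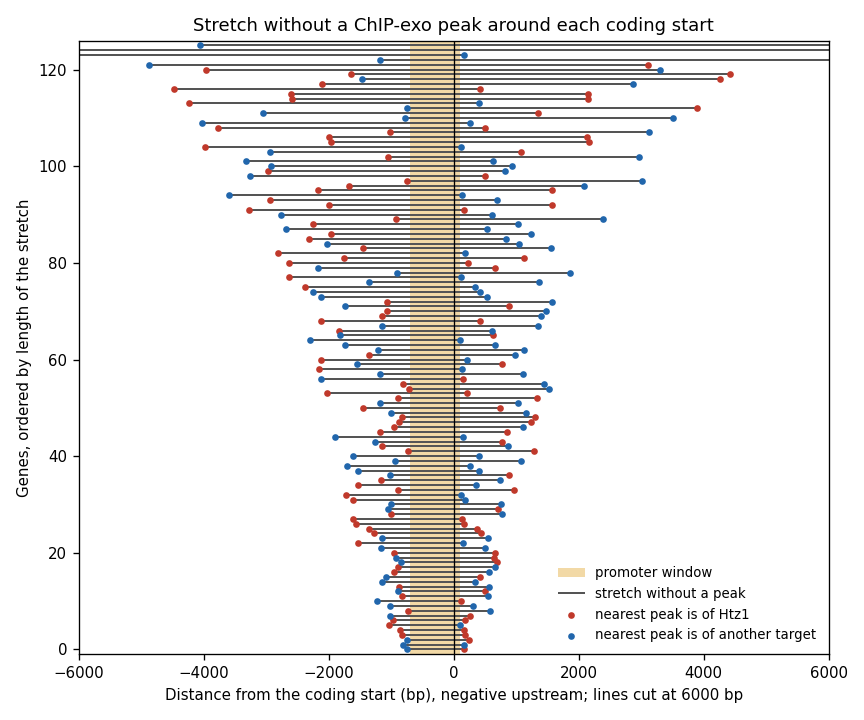
Distance from the coding start (horizontal axis, bp) to the nearest ChIP-exo peak upstream and downstream for the 126 genes with a peak on each side, 1 line per gene ordered by the length of the stretch, with the promoter window shaded. Points show the bounding peaks, Htz1 apart from other targets. Lines are cut at 6000 bp, and the stretches run from 905 to 18438 bp.

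Htz1 was the target that bounded these stretches most often. Its peak was the nearest upstream for 71 of 128 members and the nearest on either side for 62. Htz1 supplied 2.03% of the rule's peaks, in 2 lists of 5546 and 1760. It also had a peak in the windows of 73.2% of eligible genes, below Sua7 with 88.5% and Tfa2 (TFIIE) with 76.9%. Sua7 was the nearest on either side at 7 members, and Ssl2, Hsf1 and Pcf11 at 4 each. On the upstream side alone Cin5, a stress transcription factor, followed Htz1 with 5 members and Sua7 had 4, while downstream Htz1 bounded 52 members and Sua7 12. The nearest target was not counted for other eligible genes. These counts therefore do not show whether Htz1 bounds members more often than other genes.

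Outside the window many members were not empty. Peaks lay over the gene beyond 100 bp for 61 members (47.7%), against 56.3% of eligible genes, in genes that were shorter at the median. Between 701 and 2000 bp upstream the median was 2.5 targets, with none at 43 members and 20 or more at 14. Members with neither were 21. The upstream stretch was not counted for other eligible genes, so whether these upstream counts are unusual is not known. The most peaks over a gene were at SRD1, with 75 peaks of 59 targets, followed by FLO11, then YOR029W with 42 of 30, QDR1, a multidrug transporter, with 32 of 21, YSR3, a sphingolipid phosphatase, with 29 of 20, and POL4, a DNA polymerase, with 27 of 17. These sets differed in kind. YOR029W carried Cyc8, Tup1, Sfl1 and Sko1, and QDR1 carried Sua7 and TFIIH subunits at a median of 1609.5 bp, close to the end of the gene and next to RPI1, which had 56 targets. YSR3 carried polymerase and elongation factors such as Rpb2, Spt4, Spt5 and Spt6, at a median of 1063 bp in a gene of 1215 bp. Its downstream neighbour MRS4 had 37 targets. At POL4 the median was 1712 bp in a gene of 1749 bp, next to PGK1, which had 82 targets.

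Just inside and just outside the rule's edges, the values were close to one another. A peak lay within 50 bp past the window for 16 members, on the upstream side at 5 and on the downstream side at 11. The closest were Sko1 at 101 bp downstream for YOL085C and Htz1 at 714 bp upstream for SAG1. On the other side of the threshold, 179 promoters had peaks of exactly 1 target, 102 of them a single peak, and at 22 every peak lay within 50 bp inside an edge. Among those with a single peak the farthest from the coding start were Vid22 at -694 bp for YGL235W and Htz1 at -694 bp for YOR105W, -693 bp for PAU17 and -689 bp for THI72, with Hhf1 (histone H4) at -668 bp for YAL065C.

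Htz1 was the sole target at 100 of the 179, Sua7 at 23, Ume6 at 10, Sum1 at 5, and Ssl2 and Yta7 at 4 each. The Htz1 calls rest mainly on replicate 1, which had a peak at 99 of those 100 promoters, while replicate 2 had one at 25 and both at 24. Without Htz1 replicate 1 the promoters without a peak would number 203, and without both Htz1 lists 228. At some of the others a repressor was the only target. Ume6, the repressor of early meiotic genes, was alone at IME2, REC8, HOP2, MSH5, MEI4 and CST9, all meiotic genes, and at GAT3, SRT1, CAT2 and CTA1. Sum1, the repressor of middle sporulation genes, was alone at SPS18, SPS19, SPR28, ECM8 and YMR244W. In the meiosis and sporulation list 12 genes had exactly 1 target, which was Ume6 or Sum1 at 8 and another target at 4: Htz1 at SPR1, LOH1 and IRC18, and Yap7 at ADY3. Neighbouring genes, such as SPS18 with SPS19 and LOH1 with IRC18, can share a peak, so the 12 are not all separate observations. Over all eligible promoters, Ume6 had a peak at 5.68% and Sum1 at 6.11%, alone or with other targets.

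The heat shock lists had not been used by the rule. At least 1 of them had a peak in the windows of 9 members (7.03%), against 47.5% of all eligible promoters. In bands of 0, 1, 2, 3 to 6, 7 to 14, 15 to 27 and 28 or more targets the share was 7.03, 21.2, 24.1, 29.3, 33.4, 47.5 and 83.9%. All 15 heat shock targets also have lists among those the rule read, so the measures are not unrelated.

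**Figure D3:**
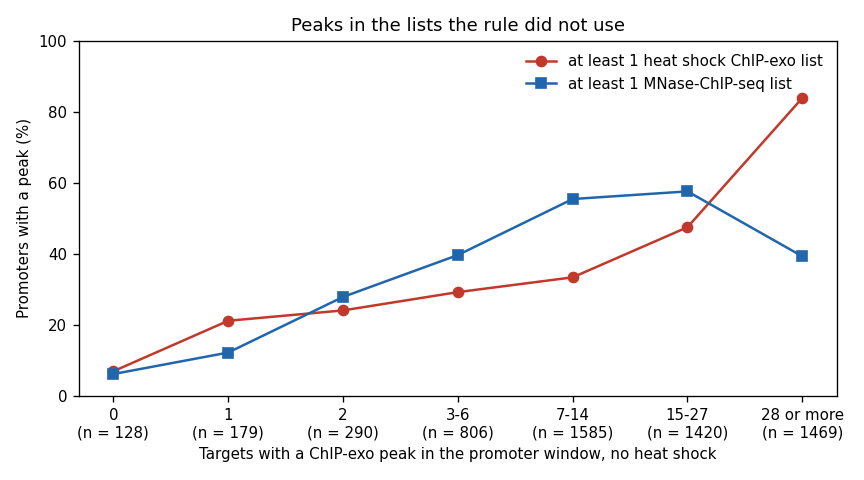
Share of promoters (%, vertical axis) with a peak in at least 1 heat shock ChIP-exo list or at least 1 MNase-ChIP-seq list, in bands of the number of targets with a ChIP-exo peak without heat shock (horizontal axis, n below each band). The heat shock share goes from 7.03% at 0 targets to 83.9% at 28 or more, while the MNase share is highest, 57.6%, at 15-27 targets and 39.3% in the last band.

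RSC subunits made up most of the heat shock peaks at members. The RSC lists (Rsc1, Rsc3, Rsc58, Rsc6, Rsc9 and Sth1) touched 6 members: HBT1, YAT2, YER152C, YGR018C, UGA1 and DAL5. They touched 4.69% of members and 31.9% of eligible promoters. Lists of the same 6 subunits without heat shock, 12 lists with 1518 peaks, touched 7.88% of eligible promoters, while the 9 heat shock lists held 5414 peaks. The excess lay in Rsc9, with 3169 peaks in heat shock lists and 125 without, and Rsc3, with 1494 and 352. Rsc1 had 457 and 598, Rsc6 16 and 112, and Sth1 16 and 79. Without Rsc9 the heat shock lists held 2245 peaks and touched 19.4% of eligible promoters and the same 6 members. The part of list length in these counts was not tested.

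HBT1, which encodes a protein of the mating projection (chromosome IV, 57265 to 60405), had heat shock peaks of Rsc1, Rsc3 in both lists and Rsc9 in both lists, all between -650 and -641 bp of the coding start. They lay within 10 bp of one another, inside the coding sequence of FMP45, which stands 466 bp upstream of HBT1. The nearest peak without heat shock was Htz1 at 731 bp upstream. At YAT2, a carnitine acetyltransferase (chromosome V, 202192 to 204963), Rsc1, Rsc3, Rsc58 and both Rsc9 lists had peaks between -166 and -154 bp. At YER152C the Rsc9, Rsc1 and Rsc3 peaks spread between -347 and -110 bp. All of them lay inside the coding sequence of PET122, which stands 52 bp upstream of YER152C. The Rsc3 peak at -181 bp had the highest score a list holds, 1000.

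The divergent promoter of UGA1 and YGR018C (chromosome VII) held 6 heat shock peaks, which are counted at both genes. Both Rsc3 lists, Rsc58 and both Rsc9 lists had peaks between -385 and -344 bp of the UGA1 start, which is -191 to -150 bp from that of YGR018C. Spt16, a subunit of the histone chaperone FACT, had a peak 39 bp inside UGA1. At DAL5 a single list, the fourth replicate of Rsc3, had a peak at -369 bp. HBT1 and the UGA1 and YGR018C promoter thus had a peak in both lists of Rsc3, and 5 of the 6 RSC members had a peak in both lists of Rsc9. Each of the 6 also had a peak of Rsc3.

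**Figure D4:**
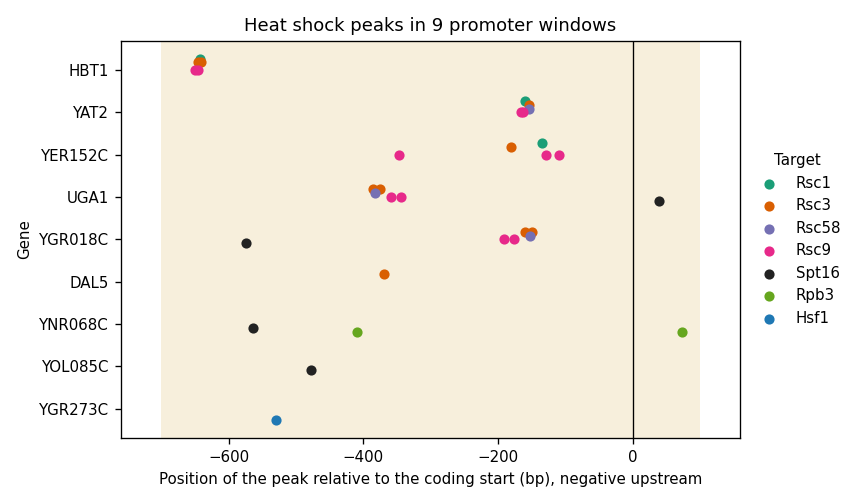
Positions of heat shock ChIP-exo peaks relative to the coding start (horizontal axis, bp, negative upstream) at the 9 genes without a peak otherwise, with 1 point per peak and colours for targets; rows are genes, points are shifted vertically by target and the promoter window is shaded. At HBT1 the RSC peaks lie between -650 and -641 bp and at YAT2 between -166 and -154 bp, while UGA1 and YGR018C show the same peaks of a shared promoter.

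The other heat shock peaks were of other proteins. YNR068C had 2 peaks of the RNA polymerase II subunit Rpb3 at 3 min, at +73 and -409 bp, and 1 of Spt16 at -563 bp. The peaks at -409 and -563 bp lay inside the coding sequence of BSC5, which stands 237 bp upstream. YOL085C, next to ADH1, had a Spt16 peak at -477 bp with a score of 1000. It lay inside the coding sequence of PHM7, which stands 341 bp upstream. YGR273C had a peak of Hsf1, the heat shock transcription factor, at -529 bp, in 1 of the 2 Hsf1 lists. That list ranked it 105 of 157 by score. The 2 Hsf1 lists, with different antibodies, touched 1.67 and 4.54% of eligible promoters.

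SAGA subunits had no heat shock peak at any member. Their 6 lists (Spt7, Sgf11 and Ubp8) held 5285 peaks, nearly as many as the RSC lists, and touched 20.6% of eligible promoters. The TATA-binding protein Spt15 at 3 min also touched 0 of 128 and 16.9% of eligible promoters. Of the longer lists, the second Spt7 list in replicate order touched 18.3% of eligible promoters and no member, and the fourth Rsc3 replicate 18.8% and 6 members (4.69%). The rule had left out every promoter with a peak of these targets without heat shock, 12.1% of eligible promoters for SAGA. Of promoters with a heat shock peak, the share without that target otherwise was 21.2% for Spt15. It was 57.4% for Sgf11, 63.0% for Spt7 and 81.1% for Ubp8. For RSC it was 36.4% (Rsc6), 57.1% (Sth1), 63.4% (Rsc58), 69.0% (Rsc1), 82.5% (Rsc3) and 97.7% (Rsc9). Only such promoters could be members, so the rule sets the member counts in part. The difference between RSC and SAGA over the members was not tested.

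**Figure D5:**
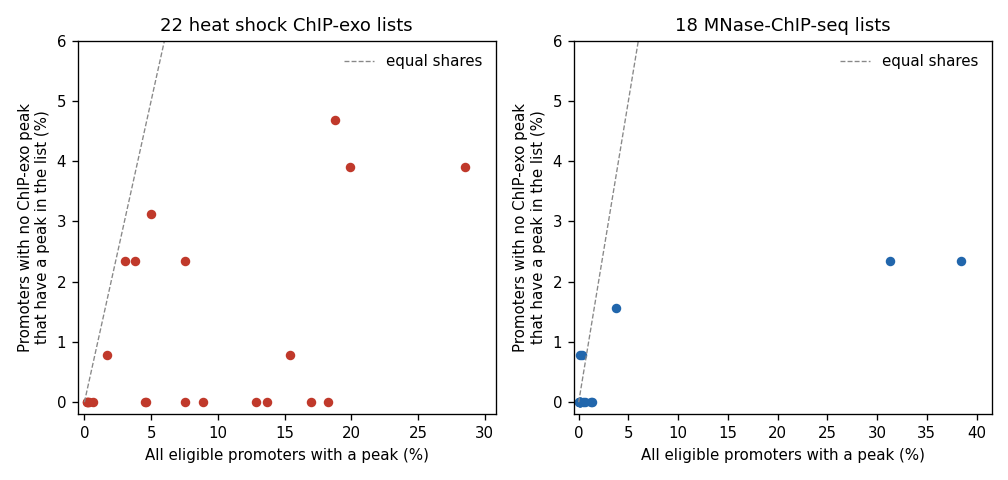
Share of the 128 promoters with no ChIP-exo peak (vertical axis, %) against share of all eligible promoters (horizontal axis, %) that have a peak in each of 22 heat shock lists (left) and 18 MNase-ChIP-seq lists (right), 1 point per list, with the dashed line marking equal shares. Lists that touch over 10% of eligible promoters all lie under the line, the highest share of the 128 being 4.69%.

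MNase-ChIP-seq lists had a peak at 8 members (6.25%), against 46% of eligible promoters, and the share was 12.3% at promoters with 1 target, 27.9% with 2 and 57.6% at 15 to 27. The 10 peaks at members were mostly of H3K4me3, trimethylation of histone H3 that is known to mark the starts of transcribed genes. Each H3K4me3 list touched 3 members (2.34%), against 38.5 and 31.3% of eligible promoters for replicates 1 and 2. The 3 differed between the lists except for YAL064W-B, whose window had peaks in both at -418 and -422 bp and of H4K12ac, an acetylation of histone H4, at -414 bp. These peaks at YAL064W-B lay inside the coding sequence of YAL065C, which stands 94 bp upstream.

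The remaining MNase peaks stood in 1 list each. H3K4me3 replicate 1 had peaks at YFL041W-A (-558 bp) and THI22 (-645 bp), a homolog of thiamine synthesis genes. Replicate 2 had peaks at SSD1, an RNA-binding protein, 8 bp inside the coding sequence, and at CMG1, 19 bp upstream. YPL038W-A had an H4K12ac peak, YHR213W an H3 peak and YKL104W-A a peak of H3K36me3, a mark laid down over transcribed genes. These peaks lay inside the coding sequences of YPL039W, YHR212W-A and GFA1, in that order. Scores of the 10 MNase peaks ran from 66 to 78, where the lowest score of any peak is 66. No member had both a heat shock and an MNase peak, and 111 had neither.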

How the data were processed

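Yeast chromatin was profiled by ChIP-exo and MNase-ChIP-seq. The submitters' processing notes name BWA, Picard and SAMtools, without versions, and the sacCer3 build. The authors' deposited files list peaks of 1 library each, as 1 bp positions with a score from 66 to 1000. How the score was computed is not given in the sources used here.

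Peak positions were read as 1-based. Gene names and coordinates came from the R64 table of RefSeq, the assembly that sacCer3 names. The strand came from the W or C of the systematic name. A chromosome end was the larger of the last gene end and the last peak. A promoter was called empty when no list without heat shock had a peak in its window. The counting was checked on simulated peaks. Python 3.11.15, pandas 2.3.3 and numpy 2.4.6 were used. Samples without a list used here (89, of them 15 untagged) were not analysed here. One sample with conflicting target labels was kept apart.

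The members, gene lists and alternatives were chosen with earlier results of these data known. No p-value is given over members. Genes were named if they lay in runs, had heat shock or MNase peaks, lay farthest from a peak (10), or belonged to a gene list. Named for their roles or for peaks outside the window, and so chosen after their values were seen, were SRD1, YOR029W, QDR1, YSR3 and POL4, the sole-target genes of Ume6 and Sum1, and the genes in the roles but in no list. Promoter sequences were not used here, so repeats and motifs were not searched. The labels do not say that replicates are separate cultures.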

Additional observations from a re-analysis of the deposited data

How the results depend on the processing

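Alternatives were set for 3 counts: 128 promoters without a peak, 9 of them with a heat shock peak and 8 with an MNase-ChIP-seq peak. A window of 300 bp upstream gave 348, 24 and 29, and one of 500 bp gave 22 with a heat shock peak. Counting only peaks with the highest score gave 716, 162 and 164. Allowing at most 1 target gave 307 promoters. Leaving out replicate 1, 2 or 3 of every target gave 131 to 269 promoters, 9 to 41 with a heat shock peak and 8 to 25 with an MNase peak. Without Htz1 the counts were 228, 36 and 18, and without its first replicate 203, 28 and 18; those 2 settings were chosen after seeing the data. Asking for a heat shock peak in both lists of a target left 5, and for 2 lists of a mark 1. The other alternatives stayed within 1.5 times: 1000 bp upstream (98 promoters), TAP tag lists only (136), 20 kb from chromosome ends (110), no such limit (180), 1 gene of each divergent pair (118), and, chosen after seeing the data, no Sua7 lists (151), positions 1 bp lower (129) and heat shock lists without Rsc9. Lists of at least 20 peaks gave the same 128. The 128 were among the promoters found under every setting except the longer window, the 20 kb limit and the divergent pair rule, which removed 30, 18 and 10 of them. The lists give peaks only, so the depth behind an empty window is unknown. No paired analysis was possible because the results come from no test.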

Other observations

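The sample whose title and source name give different targets, Abf1 and Mot1, had a list of 1239 peaks. It had a peak at 0 of the 128 promoters and at 942 of 5877 eligible promoters (16.0%).

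Genes with 2 long coding sequences nested in 1 another, the arrangement of retrotransposon Gag and Gag-Pol genes, were 78 in number. None of them was among the 128, though at the background share of 2.18% few members would fall in a list of this size. Their windows had peaks of a median of 76 targets.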
